A study of Mus musculus with 6 samples.

Results

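Aminoacyl-tRNA synthetases, the enzymes that load amino acids onto transfer RNA, were examined in whole-pancreas RNA of 8-week-old mice in 3 Ela1-Myc and 3 wild-type (WT) libraries. The group comprised 36 genes chosen by name among 23099 gene symbols, and all 36 had a row in the files: 20 encode the enzymes of the cytosol and 16, whose symbols end in 2, those of mitochondria. Ela1-Myc mice carry Myc, a transcription factor of cell growth, under the promoter of elastase 1, a digestive enzyme gene of the acinar cells, so the transgene is active in the exocrine part of the organ. WT mice lack it; age and tissue were the same in both groups, and nothing says whether each library came from a single animal. Values are the adjusted FPKM of the authors divided by 100000. FPKM gives fragment numbers per kilobase of a gene's transcript, relative to the mapped fragments of the library. It allows levels of different genes to be compared.

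Each synthetase joins 1 amino acid to its tRNAs, and the charged tRNA then delivers that amino acid to the ribosome. The cytosolic set serves the bulk of protein synthesis, which in a resting acinar cell is mostly the making of digestive enzymes. The mitochondrial set, also encoded in the nucleus, serves the few proteins translated inside mitochondria. Several cytosolic enzymes sit together in the multisynthetase complex, while others act free in the cytosol. Many cytosolic synthetase genes are reported targets of ATF4, the transcription factor that is translated when amino acids run short or the endoplasmic reticulum is under stress.

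The libraries differed in more than Myc. Myc stood at 52.0, 34.4 and 34.2 in the Ela1-Myc libraries and at 4.10 in WT replicate 2, with a listed 0 for both other WT libraries; the transgene and the mouse's own gene were not separated. The median of 8802 tested genes lay 1.22 log2 units higher in Ela1-Myc, so changes are also given after median-of-ratios scaling, which divides each library by the median ratio of its genes to their average and left that median at 0.24. WT replicate 2 stood apart from the other libraries, with summed values of 1948844 against 629597 to 1180257 and with 2195 symbols listed at 0 against 3452 to 6102. RNA integrity numbers were 8.8, 7.2 and 8.3 in Ela1-Myc and 7.3, 7.3 and 7.1 in WT. At a limma adjusted p under 0.05, 70.2% of all tested genes were called higher in Ela1-Myc and 0.239% lower. After scaling the shares were 18.1% and 7.95%. The marker counts below stand against these shares. Of the acinar markers, 6 of 9 were called lower and 1 higher, with summed values of 209200 to 453000 in Ela1-Myc and 355900 to 1110000 in WT. Macrophage markers were called higher for 7 of 7, with sums of 385.9 to 1126 in Ela1-Myc and 0.129 to 47.7 in WT, where Cd68 was listed at 0 throughout. Lymphocyte markers were higher for 7 of 7 tested, with sums of 16.7 to 145.6 in Ela1-Myc and 0 to 34.4 in WT. Stellate and fibroblast markers were higher for 4 of 5, at 302.7 to 463.3 in Ela1-Myc and 45.3 to 93.8 in WT, and islet markers for 5 of 6, at 2424 to 3330 in Ela1-Myc and 0 to 2473 in WT. Duct markers were higher for 3 of 5 tested (182.4 to 339.4 in Ela1-Myc, 72.3 to 202.9 in WT) and endothelial markers for 2 of 5 (26.97 to 32.2 in Ela1-Myc, 11.9 to 18.0 in WT). The duct and endothelial counts were below the share of all tested genes. All 6 islet markers were listed at 0 in WT replicate 1. All 7 macrophage and all 8 lymphocyte markers were listed at 0 in 1 or more WT libraries. So were 3 stellate and fibroblast and 3 duct markers. The calls take these 0 values as measured. The 1 acinar marker called higher, Amy2a5, was likewise listed at 0 in WT replicates 1 and 3. WT replicate 2 gave 70.4 for Amy2a5, against a range of 1278 to 1665 over the Ela1-Myc libraries. The Amy2a5 calls, before and after scaling, also take the listed 0 as measured. After scaling, 8 acinar markers were called lower and 1 higher (again Amy2a5), and 1 duct marker was called higher (Krt7) and 1 lower (Muc1). Of the other lists 5 macrophage, 3 stellate and fibroblast, 1 lymphocyte, 1 islet and 0 endothelial markers were called higher after scaling, and none lower. Their part in the synthetase values was not tested, and in bulk RNA fewer cells of a type cannot be told apart from less RNA per cell.

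On the deposited scale 11 of the 20 cytosolic synthetase genes were higher in Ela1-Myc with no overlap between the groups, and 9 overlapped. Such a separation was no more frequent than among all tested genes, where 75.3% showed it. After scaling 6 of the 20 separated upward and 1 downward, next to 30.4% and 17.2% of tested genes. Tryptophanyl-tRNA synthetase, Wars, was the one gene of the 20 with a negative log2 change on the deposited scale. All 20 met the filter on low values (an average of 1 or more across the libraries), and 11 were called higher and none lower by limma at an adjusted p of 0.05. At an unadjusted p under 0.05 none was lower either. At the same threshold 70.2% of all tested genes were called higher and 0.239% lower. The median log2 change of the 20 genes was 2.02, against 1.22 over all tested genes. After scaling, 2 were called higher and 1 lower, where 18.1% and 7.95% of tested genes were called, and the median was 0.81 against 0.24. The count of calls was therefore at or below the background on both scales, while the median was above it. Without WT replicate 2, which had the highest value of the 3 WT libraries for 19 of the 20 genes, 19 were called higher, and 9 after scaling. In those fits 81.1% of all tested genes were called higher, and 20.7% after scaling.

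**Figure D1:**
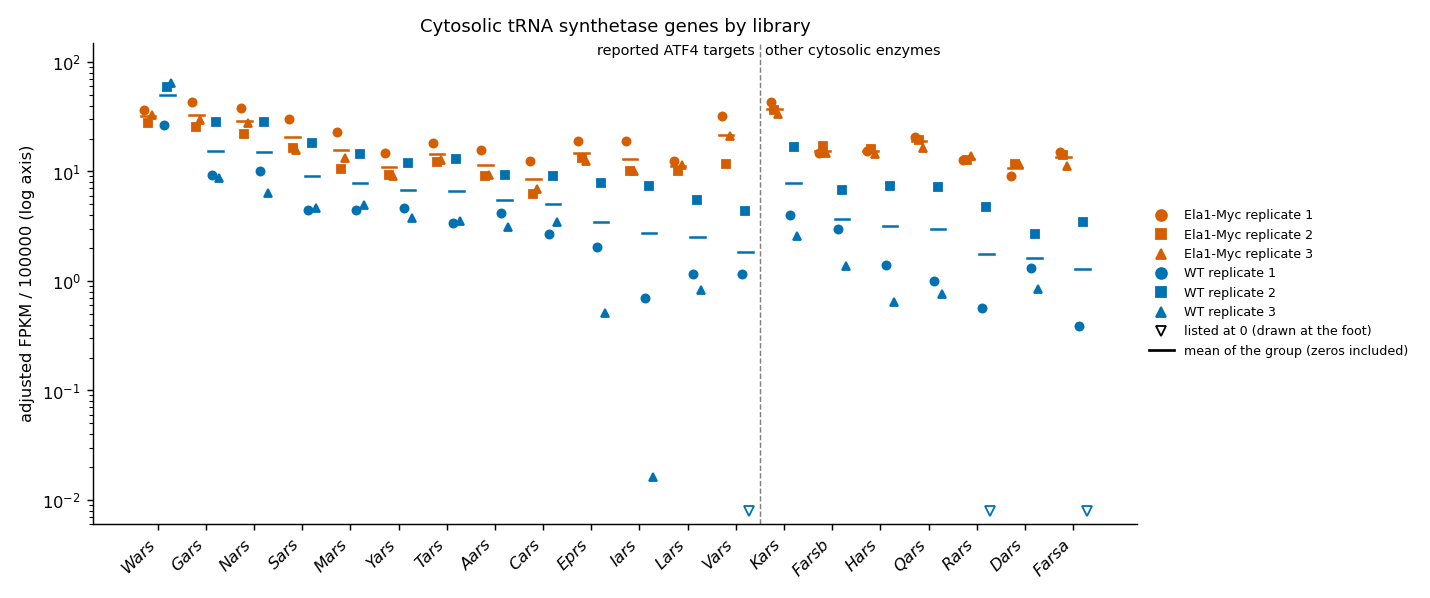
Adjusted FPKM divided by 100000 (log axis) for the 20 cytosolic synthetase genes in 3 Ela1-Myc (orange) and 3 WT (blue) libraries; symbols mark replicates, bars the group means, and open triangles values listed at 0. For the 7 genes on the right every Ela1-Myc value lies above every WT value, whereas the first 9 genes on the left overlap between the groups.

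The 7 enzymes outside the list of reported ATF4 targets separated without exception, and most of the listed targets did not. All 7 (Dars, Farsa, Farsb, Hars, Kars, Qars and Rars) were called higher, with log2 changes of 1.98 to 2.96 and a median of 2.49, and in all 7 the 3 Ela1-Myc values lay above the 3 WT values, as they did for 75.3% of tested genes. Of the 13 reported ATF4 targets 4 were called higher, namely Eprs, Iars, Lars and Vars, at 2.05 to 3.22 log2 units. Of all tested genes 70.2% were called higher. The other 9 (Aars, Cars, Gars, Mars, Nars, Sars, Tars, Wars and Yars) overlapped between the groups, and the median of the 13 was 1.21. After scaling the medians were 1.17 for the 7 genes and -0.23 for the 13. Of the 7 genes 2 were then called higher, and of the 13 none higher and 1 lower. The scaled shares over all tested genes were 18.1% higher and 7.95% lower. The ATF4 list was drawn up with earlier results of these data known, and the difference between the 2 sets was not tested. The split also went with the level in WT. All 9 overlapping genes had WT means of 5.05 (Cars) or more. The genes that separated had WT means of 3.71 (Farsb) or less, a listed 0 included, except Kars at 7.82. Whether the split goes with the list or with the level was not tested.

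Dars, which charges aspartate (chromosome 1, 128363707 to 128417416, GRCm38), stood at 9.16, 11.8 and 11.6 in Ela1-Myc and at 1.31, 2.70 and 0.841 in WT. Every Ela1-Myc library was well above the highest WT library. It rose by 2.23 ± 0.397 log2 units (SE; limma adjusted p = 0.000355) and by 1.09 ± 0.265 after scaling (adjusted p = 0.0275), and it was one of 2 synthetase genes called higher on both scales. The scaled call was lost without WT replicate 3, Ela1-Myc replicate 2 or Ela1-Myc replicate 3 (limma adjusted p of 0.0749, 0.0985 and 0.0881).

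Phenylalanyl-tRNA synthetase is built from 2 different subunits, and both genes were higher. Farsa, for the alpha subunit (chromosome 8, 84856986 to 84869257), stood at 15.2, 14.0 and 11.2 in Ela1-Myc and at 0.390 and 3.49 in WT replicates 1 and 2, and was listed at 0 in WT replicate 3. It was the other gene called on both scales, with changes of 2.96 and, once scaled, 2.08 log2 units (limma adjusted p of 0.000246 and 0.0341). The scaled call held without WT replicate 2 (limma adjusted p of 0.00386) and was lost without any other library (0.0688 to 0.116). Farsa was also not called under quantile normalization (1.855 log2 units, limma adjusted p = 0.0533). With 1 added to the undivided values it was not called either (limma adjusted p = 0.146). Farsb, for the beta subunit, stood at 14.7, 17.1 and 14.7 in Ela1-Myc and at 2.95, 6.82 and 1.36 in WT. It rose by 1.98 log2 units (limma adjusted p = 0.0038) but missed the threshold once scaled (0.71, adjusted p = 0.212). The ratio of Farsa to Farsb, which no scaling of a library can move, was 1.04, 0.817 and 0.759 in Ela1-Myc and 0.132 and 0.512 in WT replicates 1 and 2, while Farsa was listed at 0 in WT replicate 3. On the log2 scale with 1 added to each value the Ela1-Myc ratio exceeded the WT ratio by 0.98. Unlike the plain ratio, this measure depends on library scale, and the difference was 2.27 with 0.1 added. An exact permutation test, two-sided, gave p = 0.1, which is the lowest value possible with 3 libraries a group.

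Kars charges lysine from a single gene that supplies both the cytosol and mitochondria. It stood at 42.9, 36.5 and 33.2 in Ela1-Myc and at 4.02, 16.9 and 2.58 in WT, and so was the highest cytosolic synthetase gene of the Ela1-Myc group by its mean, 37.6 ± 4.95 against 7.82 ± 7.87 in WT (SD, n = 3 each). The groups did not overlap on the deposited scale but did after scaling (2.49 and 1.12 log2 units; limma adjusted p of 0.00458 and 0.114). Gars, the glycine enzyme, likewise serves both compartments from one gene, and it stood at 43.1, 25.6 and 29.3 in Ela1-Myc and at 9.25, 28.0 and 8.65 in WT. Here WT replicate 2 lay within the Ela1-Myc range, and Gars was not called on either scale (1.21 and -0.23 log2 units; limma adjusted p of 0.106 and 0.644).

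Nars, for asparagine, followed Gars, at 37.8, 21.8 and 27.5 in Ela1-Myc and 10.2, 28.2 and 6.33 in WT (limma adjusted p of 0.132; 0.608 after scaling). Yars, for tyrosine, stood at 14.8, 9.32 and 9.08 in Ela1-Myc and at 4.69, 11.98 and 3.75 in WT. Its log2 change was 0.74 on the deposited scale and -0.59 after scaling, neither of them called (limma adjusted p of 0.199 and 0.218). Aars, Cars, Mars, Sars and Tars, for alanine, cysteine, methionine, serine and threonine, lay between 0.74 and 1.32 log2 units before scaling and between -0.53 and -0.05 after it, with no call on either scale. In each of these genes the value of WT replicate 2 reached into the Ela1-Myc range. Without that library all 8 of the overlapping genes other than Wars were called higher on the deposited scale, where 81.1% of all tested genes were.

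Hars, Qars, Rars and Vars also separated the groups on the deposited scale, with WT replicate 2 the highest WT library in each. Hars, for histidine, stood at 15.4, 15.9 and 14.4 in Ela1-Myc and at 1.41, 7.41 and 0.642 in WT (2.33 log2 units, limma adjusted p = 0.0024; 1.17 and 0.121 after scaling). Qars and Rars, for glutamine and arginine, were higher by 2.69 and 2.76 log2 units and missed the threshold after scaling (limma adjusted p of 0.0558 and 0.0641), although their scaled groups did not overlap. Vars, for valine, had the largest log2 change of the 36 genes, 3.22 ± 0.582 (SE; limma adjusted p = 0.000398). Its values were 31.8, 11.8 and 21.3 in Ela1-Myc and 1.17 and 4.38 in WT replicates 1 and 2, it was listed at 0 in WT replicate 3, and its scaled change of 2.20 had an adjusted p of 0.051. Rars was listed at 0 in the same WT library. The p-values of Farsa, Rars and Vars take that 0 as a measured value.

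The enzymes of the multisynthetase complex were called higher for 7 of 8 genes (Dars, Eprs, Iars, Kars, Lars, Qars and Rars, with Mars not called), with a median of 2.35 log2 units, while 70.2% of all tested genes were called higher. The call of Iars was lost with no filter (limma adjusted p = 0.0545). Eprs encodes a fused enzyme for glutamate and proline; Iars and Lars charge isoleucine and leucine. Of the 12 cytosolic enzymes outside it 4 were called higher (Farsa, Farsb, Hars and Vars), with a median of 1.22. After scaling the medians were 1.11 and -0.17. The complex and the ATF4 list divide the same 20 genes in overlapping ways, since 4 of the 7 genes outside the ATF4 list belong to the complex. Sorted by the fold of the catalytic domain, the tested members had medians of 1.43 log2 units for 17 genes of class I and 1.44 for 14 genes of class II.

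Wars charges tryptophan and is in humans known also as a gene induced by interferon gamma. In WT it was the highest cytosolic synthetase gene in every library, at 26.3, 58.9 and 64.9, and in Ela1-Myc it stood at 36.7, 27.9 and 32.7. The groups overlapped through WT replicate 1 alone, and the log2 change of -0.52 ± 0.697 was not called (SE; limma adjusted p = 0.5). After scaling the values were 21.9, 18.45 and 17.0 in Ela1-Myc and 64.7, 63.0 and 119.6 in WT, with no overlap. The scaled change, -1.99 ± 0.349 log2 units, was called lower (limma adjusted p = 0.0102), and it was also called lower under quantile normalization (-2.07, adjusted p = 0.0134). Leaving out Ela1-Myc replicate 3 lost the scaled call (-1.88, limma adjusted p = 0.0535). In 5 other omissions it held.

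Within a library the make-up of the cytosolic set can be read without any scaling. Wars took 8.25%, 8.94% and 9.99% of the summed values of the 20 genes in Ela1-Myc and 30.5%, 22.2% and 58.6% in WT, and the groups were far apart. The 7 genes outside the ATF4 list together took 29.4%, 40.9% and 35.3% in Ela1-Myc and 13.5%, 18.6% and 5.57% in WT. Since shares add up to a whole, a lower Wars share raises the others. With Wars set aside, the summed values of those 7 genes were 0.471, 0.815 and 0.645 times those of the 12 other ATF4 targets in Ela1-Myc and 0.241, 0.313 and 0.155 times in WT. The ratio was higher in every Ela1-Myc library than in every WT library. Because the division into 7 and 12 genes was drawn up with earlier results of these data known, the ratio is no independent support for it. The listed 0 values of Farsa, Rars and Vars in WT replicate 3 count as measured in these shares and ratios. Among single genes, 10 of the 20 had a larger share in all Ela1-Myc libraries, and 3 a smaller one, namely Cars, Wars and Yars. That count was not repeated with Wars set aside and has no counterpart over all tested genes.

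**Figure D2:**
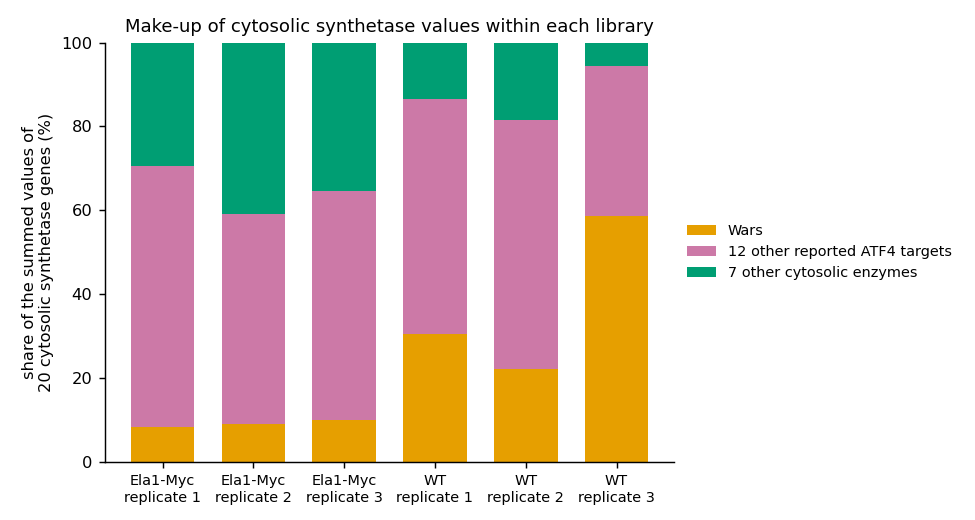
Share of the summed adjusted FPKM of 20 cytosolic synthetase genes (percent, bars add to the whole) taken by Wars, by 12 other reported ATF4 targets and by 7 other enzymes in each library. Wars takes 8.25% to 9.99% in Ela1-Myc and 22.2% to 58.6% in WT.

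Promoters are shown for 5 of these genes because the 2 sets of cytosolic enzymes were named for a transcription factor with a known binding sequence. The windows are RefSeq sequence of GRCm38.p6, from 250 bases before to 50 after the start of the gene, on the strand of the gene. Capitals mark the core of the C/EBP-ATF response element, TGATGNAA on either strand, and the E-box CACGTG, the sequence that MYC and its partner MAX bind. These letters do not overlap one another in the windows shown.
Aars (chr8:111033592-111033891, plus strand): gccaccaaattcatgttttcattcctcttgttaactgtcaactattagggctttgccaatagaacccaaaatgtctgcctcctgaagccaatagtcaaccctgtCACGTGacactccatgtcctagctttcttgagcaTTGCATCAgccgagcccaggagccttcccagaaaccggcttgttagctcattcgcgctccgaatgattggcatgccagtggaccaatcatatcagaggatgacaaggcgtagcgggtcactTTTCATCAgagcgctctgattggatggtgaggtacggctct
Iars (chr13:49681880-49682179, plus strand): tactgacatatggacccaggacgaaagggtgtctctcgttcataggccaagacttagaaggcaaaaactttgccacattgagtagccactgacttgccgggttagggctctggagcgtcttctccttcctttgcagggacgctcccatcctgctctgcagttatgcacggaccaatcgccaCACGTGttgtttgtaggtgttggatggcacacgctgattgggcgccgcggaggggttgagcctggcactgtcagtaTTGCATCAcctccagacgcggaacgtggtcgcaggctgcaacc
Tars (chr15:11399609-11399908, minus strand): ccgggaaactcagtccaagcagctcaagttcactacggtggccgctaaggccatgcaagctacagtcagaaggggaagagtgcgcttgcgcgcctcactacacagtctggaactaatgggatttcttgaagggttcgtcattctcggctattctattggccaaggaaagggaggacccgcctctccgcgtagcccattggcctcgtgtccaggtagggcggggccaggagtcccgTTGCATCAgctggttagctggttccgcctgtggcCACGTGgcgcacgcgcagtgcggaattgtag
Farsb (chr1:78488848-78489147, minus strand): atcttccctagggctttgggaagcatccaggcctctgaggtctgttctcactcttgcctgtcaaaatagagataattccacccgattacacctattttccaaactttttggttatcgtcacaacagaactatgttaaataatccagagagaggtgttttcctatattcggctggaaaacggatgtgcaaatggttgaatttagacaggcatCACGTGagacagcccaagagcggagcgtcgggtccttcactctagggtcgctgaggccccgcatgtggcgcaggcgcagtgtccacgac
Dars (chr1:128417367-128417666, minus strand): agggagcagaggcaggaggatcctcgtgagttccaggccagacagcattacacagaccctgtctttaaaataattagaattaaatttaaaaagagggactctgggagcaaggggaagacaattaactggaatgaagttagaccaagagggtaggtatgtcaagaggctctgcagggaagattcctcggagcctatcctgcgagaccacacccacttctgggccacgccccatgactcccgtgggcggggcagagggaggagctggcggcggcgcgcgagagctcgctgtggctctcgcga
Aars holds the ATF core at bases 139 and 260 of its window, Iars at base 258 and Tars at base 236, and all 3 also hold an E-box, at bases 105, 182 and 270. Farsb holds an E-box at base 212 and no ATF core, and Dars has neither.

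Promoter windows were found for 26 of the 36 genes, 12 cytosolic and 14 mitochondrial. The ATF core was present for Aars, Gars, Iars, Tars and Yars, which are 5 of the 7 reported ATF4 targets with a window, and for 0 of the 5 other cytosolic genes and 0 of the 14 mitochondrial genes, while 4.51% of the 27025 genes in the RefSeq table and 3.01% of the 6318 tested genes with a window hold it. Of those 5 genes only Iars was called higher on the deposited scale. An E-box was present for Aars, Farsb, Iars and Tars among the 12 cytosolic genes and for Ears2 among the 14 mitochondrial ones, against 8.09% of all genes and 12.5% of the tested genes with a window. A match of letters describes the window and does not show that a factor binds there.

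Apart from Lars2, mitochondrial synthetase genes had means below 10 in both groups, and most of them were higher in Ela1-Myc. The filter was met by 11 of the 16; Aars2, Mars2, Nars2, Pars2 and Wars2, with means under 1, were not tested. Of the 11, 9 were called higher by limma and none lower, next to the 70.2% of tested genes called higher. After scaling none was called higher (3 were at an unadjusted p under 0.05, Ears2, Tars2 and Yars2) and 1, Cars2, was called lower. Of all tested genes 18.1% were then called higher and 7.95% lower. The 3 Ela1-Myc values lay above the 3 WT values for 14 of the 16 genes before scaling (9 of the 11 tested, where 75.3% of tested genes did) and for 8 of 16 after it (5 of 11 tested, against 30.4%). With no filter 12 of 16 were called higher, among them Aars2, Mars2, Pars2 and Wars2, and 36.7% of all 23099 symbols were.

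**Figure D3:**
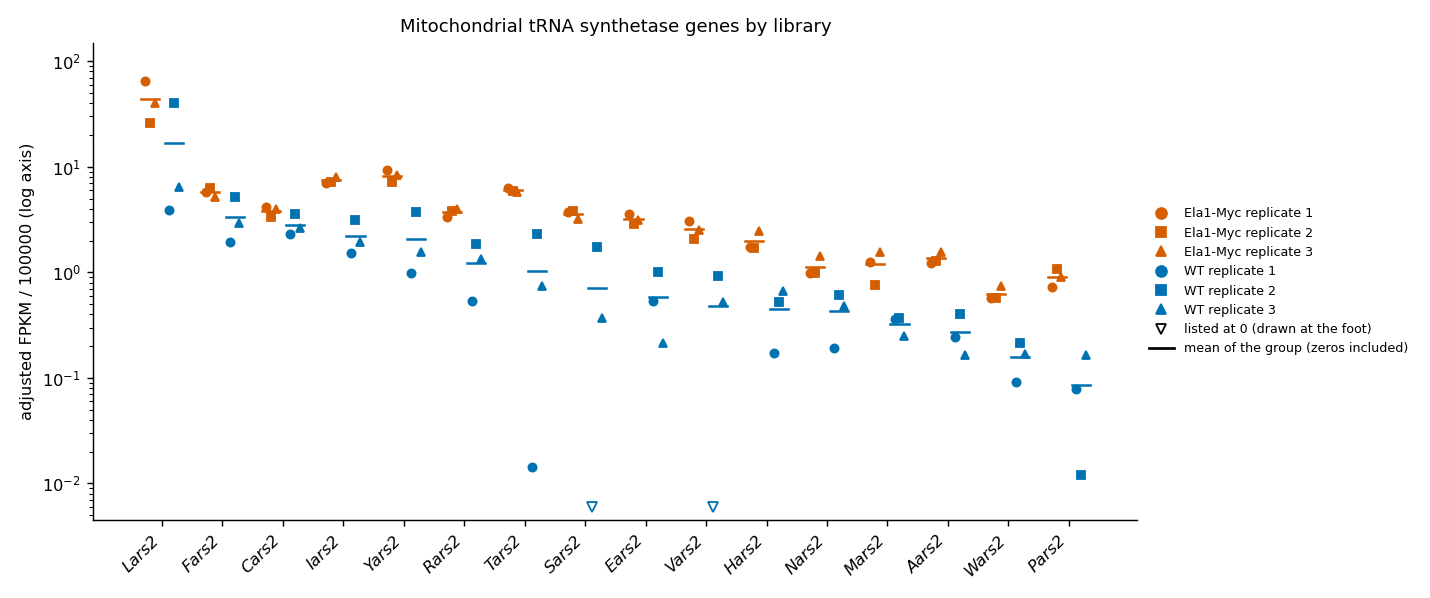
Adjusted FPKM divided by 100000 (log axis) for the 16 mitochondrial synthetase genes in 3 Ela1-Myc (orange) and 3 WT (blue) libraries; symbols mark replicates, bars the group means, and open triangles values listed at 0. Only Lars2 and Cars2 overlap between the groups.

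Lars2, for leucine, had the highest values of the mitochondrial set, 64.8, 26.0 and 40.4 in Ela1-Myc and 3.88, 39.8 and 6.41 in WT. It made up 34.7% to 55.1% of the summed mitochondrial values in Ela1-Myc and 30.3% to 60.9% in WT. WT replicate 2 lay above Ela1-Myc replicate 2, and the call on the deposited scale was narrow (1.88 log2 units, limma adjusted p = 0.0453; 0.48 and 0.568 after scaling). That call was lost without any one library other than WT replicate 2 (limma adjusted p of 0.0597 to 0.186), with a pseudocount of 0.1 (0.0769) and with no filter (0.129). Yars2, for tyrosine, was steadier, at 9.30, 7.13 and 8.36 in Ela1-Myc and 0.986, 3.72 and 1.56 in WT. It rose by 1.68 log2 units (limma adjusted p = 0.00273) but was no longer called once scaled (0.53, adjusted p = 0.116).

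Iars2, for isoleucine, stood at 6.997, 7.25 and 8.02 in Ela1-Myc and at 1.53, 3.13 and 1.92 in WT, and rose by 1.43 log2 units (limma adjusted p = 0.00408). After scaling its change was 0.24, as for the median of all tested genes. Hars2, for histidine, lies beside Hars with 195 bases of exons shared on opposite strands, and stood at 1.74, 1.69 and 2.49 in Ela1-Myc and at 0.171, 0.521 and 0.667 in WT. It rose by 1.04 log2 units (limma adjusted p = 0.0031), on a scale where the added 1 understates changes of values this low. Tars2, Sars2, Ears2, Vars2 and Rars2, for threonine, serine, glutamate, valine and arginine, rose by 1.12 to 1.96 log2 units, and Sars2 and Vars2 were listed at 0 in WT replicate 1.

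Cars2 and Fars2, for cysteine and phenylalanine, had the smallest changes of the 11 tested genes. Cars2 stood at 4.20, 3.34 and 4.02 in Ela1-Myc and at 2.29, 3.58 and 2.65 in WT, with a log2 change of 0.35 (limma adjusted p = 0.348). After scaling its 3 Ela1-Myc values lay below its 3 WT values and the change of -0.81 ± 0.2 was called lower (SE; limma adjusted p = 0.0286), a call lost when WT replicate 3 or any Ela1-Myc library was left out (limma adjusted p of 0.0529 to 0.125). Fars2 stood at 5.78, 6.37 and 5.18 in Ela1-Myc and at 1.92, 5.15 and 2.93 in WT, so that the groups were separated by a narrow margin and the change of 0.71 was not called (limma adjusted p = 0.115; -0.49 and 0.127 after scaling). Under quantile normalization Fars2 was called lower as well (-0.79, adjusted p = 0.0417).

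**Figure D4:**
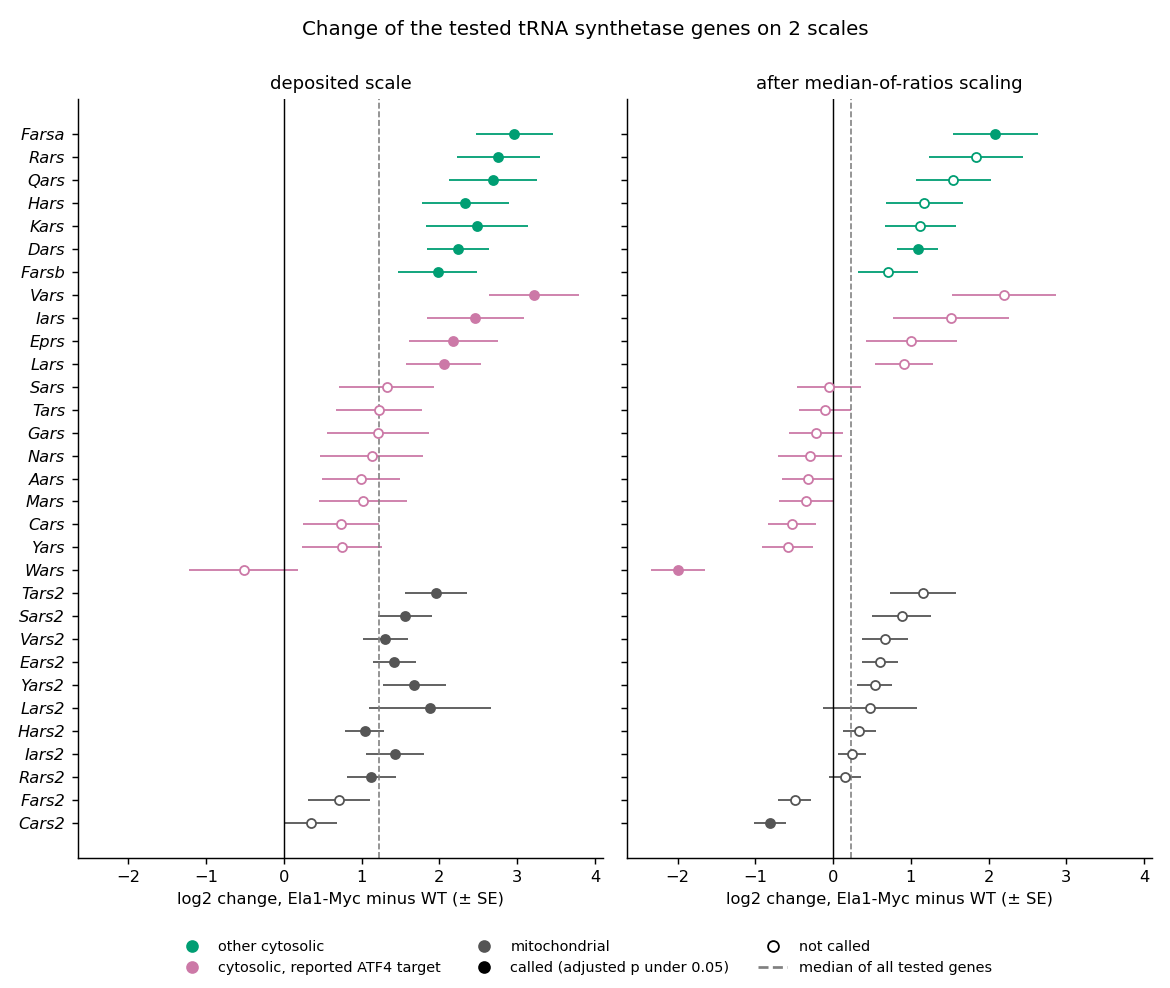
Log2 change of the 31 tested synthetase genes (Ela1-Myc minus WT, bars are SE) on the deposited scale and after median-of-ratios scaling; filled points have a limma adjusted p under 0.05, and the dashed line is the median of 8802 tested genes. After scaling Farsa and Dars are filled on the right, and Wars and Cars2 on the left of 0.

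Set against each other within a library, the mitochondrial genes did not shift clearly relative to the cytosolic ones. The sum of the 16 mitochondrial values was 0.264, 0.240 and 0.285 times the sum of the 20 cytosolic values in Ela1-Myc and 0.149, 0.246 and 0.185 times in WT, which overlapped. With Lars2 and Wars set aside, the ratios were 0.130, 0.172 and 0.180 in Ela1-Myc and 0.149, 0.124 and 0.307 in WT, and overlapped more widely. On the deposited scale both sums were higher in every Ela1-Myc library, as single values were for 75.3% of tested genes. The cytosolic sums were 312 to 444.8 in Ela1-Myc and 86.2 to 265.3 in WT. For the mitochondrial genes they were 74.8 to 117.7 in Ela1-Myc and 12.8 to 65.4 in WT. Median-of-ratios scaling divides by larger factors in Ela1-Myc (1.51 to 1.92) than in WT (0.4064 to 0.9345), and scaled sums were not compared.

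Other genes between tRNA charging and elongation were mostly called higher as well. Of 20 listed genes 17 were tested, and 16 were called higher by limma on the deposited values, as were 70.2% of all tested genes, and none lower (0 at an unadjusted p under 0.05). After scaling 6 were higher and none lower (0 at an unadjusted p under 0.05), against 18.1% of tested genes called higher. Among them were the glutaminyl-tRNA amidotransferase subunit Qrsl1, the enzyme Trnt1, which adds the CCA end to tRNAs, the proofreading enzyme Dtd1, and the mitochondrial elongation factors Tsfm and Gfm1. Of these Dtd1 had the largest scaled change, at 6.12, 8.55 and 6.98 in Ela1-Myc and 0.0413, 1.45 and 0.279 in WT (1.69 log2 units after scaling, limma adjusted p = 0.0152). Trnt1 stood at 2.04, 2.90 and 3.95 in Ela1-Myc and at 0.0567 and 0.630 in WT replicates 1 and 2, with a listed 0 in WT replicate 3 (1.12 log2 units after scaling, limma adjusted p = 0.0207). Qrsl1, Tsfm and Gfm1 were higher by 0.59, 0.80 and 0.98 log2 units after scaling (limma adjusted p of 0.0408, 0.0291 and 0.0414). The scaffold genes of the multisynthetase complex Aimp1, Aimp2 and Eef1e1 rose by 2.08, 1.92 and 2.15 log2 units and were not called after scaling (limma adjusted p of 0.197, 0.485 and 0.103).

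Of the genes of the ATF4 pathway outside the synthetases, most were not called. Of 14 listed genes 13 were tested; 4 were called higher (Psat1, Shmt2, Ddit3 and Ddit4) by limma and none lower before scaling (0 at an unadjusted p under 0.05), where 70.2% of all tested genes were called higher and 0.239% lower. After scaling 2 were higher (Ddit3 and Ddit4) and 2 lower (Asns and Chac1), where 18.1% and 7.95% of tested genes were. All 4 genes called higher had a listed 0 in WT. Psat1 and Shmt2 had it in WT replicate 3, and Ddit3 and Ddit4 in WT replicates 1 and 3. Their fitted changes take these 0 values as measured. Asns, asparagine synthetase, stood at 124.8, 81.9 and 93.5 in Ela1-Myc and at 57.97, 152.3 and 66.5 in WT, with WT replicate 2 above all other libraries (0.23 log2 units, limma adjusted p = 0.788; -1.27 and 0.0287 after scaling). Atf4 itself stood at 71.3, 51.9 and 53.6 in Ela1-Myc and at 26.5, 73.4 and 27.6 in WT and was not called on either scale (limma adjusted p of 0.446 and 0.0852).

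Single values of some members are uncertain because transcripts overlap or have close copies in the GENCODE annotation. Iars matches the pseudogene Gm4849 over 1656 bases at 96.0% identity. Aars shares 1326 exonic bases on the same strand with Exosc6. Mars overlaps Ddit3 by 68 bases on the opposite strand, Farsb overlaps Sgpp2 by 248 and Iars2 overlaps Rab3gap2 by 2034. The libraries were made with a kit that keeps the strand, but the sources used here do not say whether the authors' counting used it.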

How the data were processed

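Polyadenylated RNA of 3 Ela1-Myc and 3 WT pancreas samples was sequenced as stranded libraries with ERCC spike-in RNA, per the labels' protocols. The deposited files hold 1 adjusted FPKM per gene and library, per the file headers. The submitters' processing notes name the build GRCm38 (mm10), Cufflinks 2.0.2, the aligner TopHat2 2.0.4 with Bowtie, the quality check FastQC 0.9.4, affy, and CASAVA 1.8. The sources used here do not state how the authors adjusted the FPKM. The depth of each library is unknown, so no counting interval is given.

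Values were divided by 100000 to bring them near the usual FPKM range, and the highest-mean row was kept for the 187 symbols with several rows among 23422. The 8802 genes averaging 1 or more went into a two-sided limma fit (limma 3.58.1, R 4.3.3) of log2(value + 1), with a variance trend and Benjamini-Hochberg adjustment over all tested genes at 0.05; this scale understates changes of low genes. Median-of-ratios factors came from tested genes above 0 in all 6 libraries. The test was tried first on simulated data that gave both groups the median spread of the Ela1-Myc libraries, so the trial does not cover unequal spread between groups. An exact 0 may be a failed estimate, since even Gapdh is listed at 0 in WT libraries, so library values rather than a mean are given for genes with a 0, and their fitted changes take it as a value. Replicates are numbered in accession order, and nothing says that they came from separate animals, so p-values cover only their spread, which may be technical. The RIN above 8.5 stated in the protocol is above the value given with most samples. Gatb and Adgre1 were matched through older symbols, and the marker Pdgfrb was not analysed here. The values of 1 gene of the wider pathway list are not reported here. Members, gene lists and tests were chosen with earlier results of these data known. Members are all named; those given in full were the genes called on both scales, the 4 highest of each class, the 3 lowest changes after scaling, and the Gars, Kars, Farsa, Farsb, Hars and Hars2 genes. The values of Vars and the promoters printed were chosen after their values were seen. Alternatives were median-of-ratios and quantile scaling, other pseudocounts, no filter and leaving out each library. Figures were drawn with matplotlib 3.10.9 and exact permutation tests run with scipy 1.17.1 in Python 3.11.15.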

Additional observations from a re-analysis of the deposited data

How the results depend on the processing

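The scale of the libraries decided most calls. Cytosolic synthetases called higher numbered 11 on the deposited scale, 2 after median-of-ratios scaling, 1 under quantile normalization and 6 with a pseudocount of 1 on the undivided values; with single libraries left out they numbered 11 to 19. Mitochondrial synthetases called higher numbered 9, 0, 0 and 4 in the same order, and 7 to 10 with libraries left out. Members called lower numbered 0 on the deposited scale, 2 after median-of-ratios scaling and 3 under quantile normalization, and 0 in each omission. After scaling, omissions (chosen after seeing the data) gave 0 to 9 cytosolic and 0 to 2 mitochondrial genes called higher and 0 to 2 called lower. The upper ends, 19, 9 and 2, came without WT replicate 2. A pseudocount of 0.1 and no filter gave 11 and 10 cytosolic and 8 and 12 mitochondrial genes higher. Of all tested genes 70.2% were called higher on the deposited scale and 18.1% after median-of-ratios scaling. Without WT replicate 2 these shares were 81.1% and 20.7%, and with no filter the deposited share was 36.7%. Shares under quantile normalization, other pseudocounts and the other omissions were not counted, so the member counts there have no reference. The log2 difference in the Farsa to Farsb ratio was 2.27 with a pseudocount of 0.1 and 0.82 to 1.17 with libraries left out.

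Log2 changes above 0 on the deposited scale turned negative after median-of-ratios scaling for Aars (-0.33), Cars (-0.53), Gars (-0.23), Mars (-0.34), Nars (-0.30), Sars (-0.05), Tars (-0.11), Yars (-0.59), Cars2 (-0.81) and Fars2 (-0.49). Under quantile normalization they turned for Aars (-0.59), Cars (-0.79), Gars (-0.39), Mars (-0.58), Nars (-0.48), Sars (-0.26), Tars (-0.34), Yars (-0.84), Cars2 (-1.13), Fars2 (-0.79), Hars2 (-0.06), Iars2 (-0.075) and Rars2 (-0.22). The other tested members kept their direction under these alternatives. The cause was not tested. No paired analysis was possible because the labels give the libraries no replicate numbers.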
